A study of Mus musculus with 6 samples.

Results

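The glucocorticoid receptor Nr3c1, 2 proteins that work with it (the co-chaperone Fkbp4 and the coactivator Ncoa2) and 7 of its known target genes (Klf9, Dusp1, Tsc22d3, Sgk1, Errfi1, Zbtb16 and Per1) were followed in single mouse blastocysts. The 10 genes are given by name, with no threshold on their values, and all 10 were found among the 12149 genes of the table through their Ensembl identifiers in GENCODE M21. Each library is 1 whole embryo of C57BL/6 background at embryonic day 3.5, collected about 96 h after the zygote received small RNAs purified from mouse sperm at 2 ng/µl. For 3 embryos (Ctl) the sperm came from normal males, and for 3 others (Dep) from males in which stress had induced a depressive state. All embryos were thus injected and cultured, first in M16 and then in potassium-supplemented simplex optimized medium (KSOM), and an uninjected group was not analysed here.

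The receptor waits in the cytoplasm in a complex with the chaperone Hsp90 and its co-chaperones, enters the nucleus when a glucocorticoid binds it, and there binds a short palindromic element, the glucocorticoid response element, or acts through other factors. Coactivators of the Ncoa family then open chromatin at the bound genes. Stress raises circulating glucocorticoids, and the level of the receptor and of its quick targets is a common readout of that hormone axis in adult tissues. Several of the targets, among them Dusp1, Sgk1, Errfi1 and Per1, also respond to growth factors, serum or cyclic AMP. Whether the media held a glucocorticoid is not given in the sources used here.

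Values are normalized counts, which are reads divided by 1 size factor per library. The reads behind them numbered 16543356 to 21548220 per library. Dep 1 stood apart, where 691 of the 12149 genes had no read, while each of the remaining 5 libraries had 5 to 106 such genes, so differences that it moves are also given without it. Abundant lineage markers were present in every embryo: the epiblast gene Nanog had 2463 to 5815 normalized counts, the trophectoderm keratin gene Krt8 14423 to 34040 and Gata6, of the primitive endoderm, 3069 to 6782. Less abundant ones had no reads in some embryos: Gata4, Sox17, Sox7, Hand1 and Fgf4 in Dep 1, Hand1 in Ctl 1 and Gata4 in Ctl 3. Of 13 oocyte and cumulus cell markers, 1 was listed, Zp3, at 0 to 125. A whole embryo is a mixture, so fewer cells of a type and less RNA per cell cannot be told apart. The labels do not say whether embryos of a group share parents or a day of injection, and p-values measure only the spread between these embryos.

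No difference between Dep and Ctl passed the test for the receptor, its cofactors or its targets. Of the 10 genes, 0 passed an adjusted p of 0.05 in limma, a linear model with pooled variance fitted over all genes (adjusted p = 0.9997 for each). The background was 0% of all 12149 genes at that threshold and 1.85% (225 genes) at an unadjusted p under 0.05, where 0 of the 10 passed. edgeR called 0 genes of the table (211, or 1.74%, at the unadjusted threshold) and DESeq2 called 1, Ly6a, which is not among the 10 and is named for that reason alone (0.00824% of 12139 genes; 279 genes, 2.3%, at the unadjusted threshold). Without Dep 1 limma called 0 genes, with 474 (3.9%) at the unadjusted threshold and 0 of the 10 among them. With the replicate number as a block the unadjusted count was 420 (3.46%), and again 0 of the 10 passed. Mean log2 levels were lower in Dep for 7 of the 10 genes and higher for 3, against 51.8% lower and 48.2% higher over all genes. The median log2 difference was -0.22, against -0.02 over all genes, and it was 0.02 after quantile normalization and 0.05 with edgeR or DESeq2. The groups did not overlap in 1 of the 10, Klf9, where 6.9% of all genes had groups that did not overlap (3.09% with Dep higher, 3.8% with Dep lower). A single gene of 10 is near that background.

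**Figure D1:**
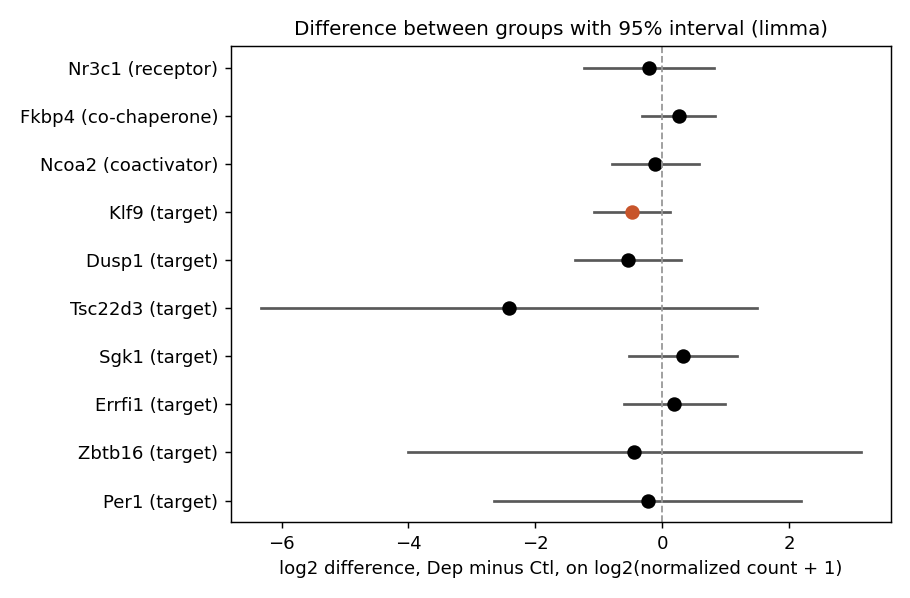
Difference in log2(normalized count + 1), Dep minus Ctl, for each of the 10 genes (points) with the 95% interval from limma (lines); the dashed line marks 0 and the orange point is the gene whose groups do not overlap. All 10 intervals include 0, and those of Tsc22d3, Zbtb16 and Per1 are the widest.

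Nr3c1, the receptor (ENSMUSG00000024431, a protein-coding gene on chromosome 18, 39410545 to 39519421 in GRCm38), was expressed in every embryo at a low level. Ctl 1, 2 and 3 held 209, 358 and 327 normalized counts, against 203, 194 and 403 in Dep 1, 2 and 3. The groups overlapped fully: Dep held both the lowest and the highest embryo, and Ctl 1 lay beside Dep 1 and Dep 2. The Ctl mean was 298 ± 78.3 and the Dep mean 266 ± 118 (SD, n = 3 each). The log2 difference was -0.21 ± 0.46 (SE; limma, unadjusted p = 0.660), with a 95% interval that runs from 0.424 to 1.76 times the Ctl level. With an embryo left out the difference ran from -0.55 without Dep 3 to -0.023 without Dep 2, and it was -0.056 without Dep 1, so its size rests on single embryos.

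The 3 genes whose profile over the 6 embryos lay closest to that of Nr3c1, by the root mean square distance of centred log2 levels among 9612 other genes with a mean of 100 normalized counts or more, were Agap1 (distance 0.06), Rpgrip1 (0.09) and Cacfd1 (0.09). Agap1 had 149, 258 and 258 normalized counts for Ctl against 151, 142 and 322 for Dep 1, 2 and 3. Like the receptor, each was low in Ctl 1, Dep 1 and Dep 2 and high in Ctl 2, Ctl 3 and Dep 3, a split that crosses the groups. They were picked for this likeness out of all genes compared and carry no test.

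Fkbp4 (ENSMUSG00000030357, chromosome 6, 128429735 to 128438677 in GRCm38), a peptidyl-prolyl isomerase that joins the Hsp90-bound receptor and favours its hormone binding and nuclear transport, was the most abundant of the 10. It had 14407, 14839 and 12742 normalized counts for Ctl against 17138, 18777.5 and 14488 for Dep 1, 2 and 3. Dep 1 and Dep 2 lay above all Ctl embryos and Dep 3 lay among them. Means were 13996 ± 1107 and 16801 ± 2165 (SD, n = 3 each; log2 difference 0.26 ± 0.26 SE, limma unadjusted p = 0.345). Ncoa2 (ENSMUSG00000005886, chromosome 1, 13139105 to 13374083 in GRCm38), a histone acetylase-recruiting coactivator that steroid receptors bind, varied little. It had 586, 715 and 612 for Ctl against 522, 677 and 576 for Dep, with a log2 difference of -0.11 ± 0.31 (SE; unadjusted p = 0.731). For these 2 genes the largest fold between any 2 embryos was 1.47 and 1.37, and the 95% intervals end at 1.79 and 1.49 times the Ctl level.

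The other proteins of the receptor's complex were measured too. Of 17 chaperones and co-chaperones, 0 passed the test, 13 had a higher mean log2 level in Dep and 4 a lower one, with a median log2 difference of 0.13 that was 0.32 without Dep 3. The groups did not overlap in 3 of them (17.6%, against 6.9% of all genes). Stub1, a ubiquitin ligase that acts on chaperone clients, had 1017, 1141 and 753 normalized counts for Ctl against 1247, 1375 and 1274 for Dep. Dnajb1, which stimulates Hsp70 proteins, had 1890.1, 1800.1 and 1797 against 2501, 2424 and 1961. Bag1, a nucleotide exchange factor for Hsp70 that can restrain the receptor, had 8422, 8501 and 8732 against 7765, 6283 and 6161. Their unadjusted p-values in limma were 0.151, 0.228 and 0.178. The most abundant members per length, Hsp90ab1 at 858 FPKM and Hspa8 at 649.9 FPKM (reads scaled to exon length and library total, mean of 6 embryos), had log2 differences of 0.27 and 0.53 with overlapping groups.

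Of 19 measured coregulators, 0 passed, 8 were higher and 11 lower, and the groups overlapped in all 19 (median log2 difference -0.02, and -0.13 without Ctl 2). Ncoa3, a close relative of Ncoa2, had 2578, 3430 and 4525 normalized counts for Ctl against 1566, 2859 and 3714 for Dep, a log2 difference of -0.42 that was -0.070 without Dep 1. Crebbp, an acetylase, had 1784, 1109.6 and 1427 against 1225, 1067 and 978. Med14, a Mediator subunit, ranged from 431 to 1694, with its extremes in Dep 1 and Ctl 1, a log2 difference of -0.48 that was -0.15 without Dep 1. The gene lies on the X chromosome, and the X-linked Xist was also lowest in Dep 1 (151) and highest in Ctl 1 (10312). The part of embryo sex in the Med14 values was not tested. The corepressor Ncor1 and the deacetylase gene Hdac2 were the most abundant of the list per length, with log2 differences of -0.01 and 0.03. Unadjusted p-values of the list started at 0.216.

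Klf9 (ENSMUSG00000033863, chromosome 19, 23141226 to 23168134 in GRCm38), a zinc finger transcription factor that the receptor induces directly in many tissues, was the only one of the 10 genes whose groups did not overlap. It had 1394, 1368 and 1639 normalized counts for Ctl against 1241, 965 and 985 for Dep 1, 2 and 3. All Dep embryos lay below the lowest Ctl embryo. Means were 1467 ± 149.6 and 1064 ± 154 (SD, n = 3 each), and the log2 difference was -0.47 ± 0.27 (SE; limma, unadjusted p = 0.113, adjusted p = 0.9997). This did not pass the test. The p-value in the authors' deposited table was 0.131, the same as with DESeq2 on recovered reads, so these are not 2 separate results. The background for a gene with all Dep values below all Ctl values was 3.8% of the table. The difference kept its sign in all 16 alternatives, from -0.58 without Dep 1 to -0.39 without Ctl 3, and its smallest unadjusted p was 0.0569, with library weights.

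Dusp1 (ENSMUSG00000024190, chromosome 17, 26505590 to 26562128 in GRCm38), a phosphatase that switches off MAP kinases, had 709, 518 and 398 normalized counts for Ctl against 347, 458 and 296 for Dep 1, 2 and 3. Ctl 3 lay below Dep 2, so the groups overlapped. Means were 542 ± 157 and 367 ± 82.8 (SD, n = 3 each; log2 difference -0.54 ± 0.38 SE, limma unadjusted p = 0.179). The difference kept its sign in all alternatives, between -0.75 and -0.33. Exons annotated to Dusp1 overlap exons of Ergic1 on the opposite strand, and the library kit does not mark strand, so reads there cannot be told apart. Ergic1 had 844 ± 274 and 845 ± 441, and its part in the Dusp1 values was not tested.

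**Figure D2:**
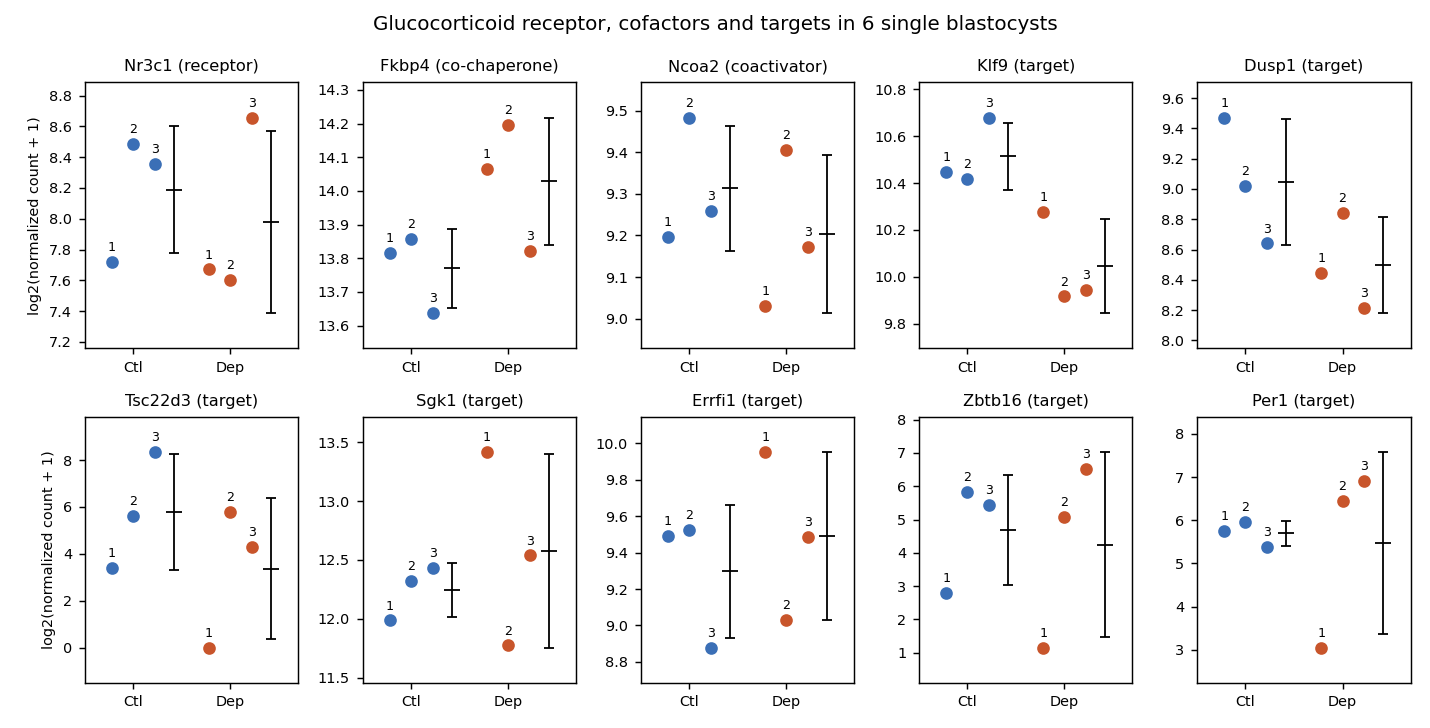
Level of each of the 10 genes as log2(normalized count + 1) in the 6 embryos, Ctl in blue and Dep in orange, with replicate numbers over the points; black bars give the group mean ± SD (n = 3), and each panel has its own axis that does not start at 0. The groups are apart in Klf9 alone, and Dep 1 is the lowest point for Tsc22d3, Zbtb16 and Per1 and the highest for Sgk1 and Errfi1.

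Sgk1 (ENSMUSG00000019970, chromosome 10, 21882184 to 21999903 in GRCm38), a serine/threonine kinase that regulates ion channels and growth, was the most abundant target. It had 4054, 5105 and 5519 normalized counts for Ctl against 10920.5, 3499 and 5944 for Dep 1, 2 and 3. Dep held the lowest and the highest embryo, and Dep 1 alone set its higher mean (4892 ± 755 against 6788 ± 3782, SD, n = 3 each). The log2 difference of 0.33 ± 0.38 (SE; limma, unadjusted p = 0.408) was -0.089 without Dep 1. Errfi1 (ENSMUSG00000028967, chromosome 4, 150853919 to 150868892 in GRCm38), a feedback inhibitor of the EGF receptor, shared the high value in Dep 1: it had 718, 735 and 470 for Ctl against 988, 522 and 717 for Dep, a log2 difference of 0.19 ± 0.36 (SE; unadjusted p = 0.602). It was -0.037 without Dep 1 and turned negative without Ctl 3 too. In Dep 1 these 2 genes were the highest of the 6 embryos, a place Dep 1 took in 24.3% of all genes. The summed level of the 10 trophectoderm markers was also highest there, at 104974 normalized counts against 42539 to 73531 in the other 5 embryos. The keratin genes Krt18 and Krt8 gave 47707 and 34040 of that sum in Dep 1. The mean log2 level of the 10 markers was 10.63 against 10.03 to 10.60. For the 10 epiblast markers the measures went apart: their sum was highest in Dep 1, at 94612 against 38829 to 79303, of which Dppa5a alone gave 88341, while their mean log2 level was lowest, at 8.0005 against 9.52 to 9.96. The part of these markers in the Sgk1 and Errfi1 values was not tested.

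Promoter windows of 250 bases before to 50 bases after an annotated start, from RefSeq on GRCm38.p6, matched 7 of the 10 genes (16 windows) and were searched on both strands for the response element of the receptor (AGAACA, any 3 bases, TGTTCT), for the cyclic AMP response element TGACGTCA and for the E-box CACGTG. The receptor's element was found in 3 of 32851 windows over all genes, or 0.00913%, and 1 of those 3 is a start of Sgk1, 189 bases upstream. The shorter AGAACA alone, which overlaps it, lay in 19% of all windows. A looser form of the element (GNACA, any 3 bases, TGTNC, with N any base) lay in 156 windows, or 0.475%. Of the 7 genes only Sgk1 held it, within the full element. Nr3c1, Ncoa2 and Zbtb16 had no window to search. TGACGTCA lay in 1.79% of all windows and in those of Dusp1, 143 bases upstream, and Errfi1, 51 bases upstream. CACGTG lay in 7.15% of all windows, and in 1 window each of Sgk1, Dusp1 and Per1. The 3 upstream stretches with a receptor or cyclic AMP element are shown 5′ to 3′ on the strand of the gene, trimmed at annotated exons, because these elements belong to the inputs described above. Capitals mark the receptor's element in Sgk1, TGACGTCA in Dusp1 and Errfi1, and also CACGTG in Dusp1. Sgk1 is chr10:21993640-21993889 (plus strand), Dusp1 chr17:26508520-26508722 (minus strand) and Errfi1 chr4:150854950-150855069 (plus strand).
Sgk1: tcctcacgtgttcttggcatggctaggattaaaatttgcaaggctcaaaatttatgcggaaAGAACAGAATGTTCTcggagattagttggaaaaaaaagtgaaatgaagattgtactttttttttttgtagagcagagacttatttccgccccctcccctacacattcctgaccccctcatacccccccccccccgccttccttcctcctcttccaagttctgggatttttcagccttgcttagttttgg
Dusp1: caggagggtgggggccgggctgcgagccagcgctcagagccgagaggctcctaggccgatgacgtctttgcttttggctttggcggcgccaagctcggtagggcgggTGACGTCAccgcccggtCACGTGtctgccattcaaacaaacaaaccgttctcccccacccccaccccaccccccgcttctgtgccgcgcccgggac
Errfi1: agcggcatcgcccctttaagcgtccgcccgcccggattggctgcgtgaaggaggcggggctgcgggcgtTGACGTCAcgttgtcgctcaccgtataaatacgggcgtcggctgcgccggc

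A match is a description of these letters and not a site shown to be bound. The table gives 1 value per gene, so which of the 6 Sgk1 starts with a window the embryos used is not known from it. The gene with the receptor's full element, Sgk1, and the 2 with TGACGTCA did not share a direction: the log2 differences were 0.33 for Sgk1, -0.54 for Dusp1 and 0.19 for Errfi1, none past the test.

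Tsc22d3, Zbtb16 and Per1 were the 3 least abundant of the 10 and varied most between embryos of the same group. Tsc22d3 (ENSMUSG00000031431), a leucine zipper protein that mediates part of the anti-inflammatory action of glucocorticoids, had 9.47, 47.6 and 321 normalized counts for Ctl 1, 2 and 3 against 0, 54.6 and 18.5 for Dep 1, 2 and 3. Ctl 3, with 364 reads, lay far above the other 5 embryos (means 126 ± 170.1 against 24.4 ± 27.8, SD, n = 3 each). The 0 reads of Dep 1 allow up to 3 reads, or 3.64 normalized counts, as the limit set here for a count of 0. The log2 difference of -2.41 ± 1.77 (SE; limma, unadjusted p = 0.201) had a 95% interval that ran from 0.0125 to 2.83 times the Ctl level. It was -0.73 without Dep 1 and -1.13 without Ctl 3, but -3.61 without Ctl 1 and -3.63 without Dep 2. In the authors' deposited table the p-value of Tsc22d3 was 0.0782, the smallest there of the 10 genes and the same as with DESeq2 on recovered reads. The gene lies on the X chromosome (140539528 to 140600659 in GRCm38). The X-linked Xist had 10312, 5518 and 874 normalized counts for Ctl against 151, 3784 and 5589 for Dep 1, 2 and 3, and the Y-linked Ddx3y 1.18, 1159.7 and 2202 against 1424, 266 and 1141. Ctl 3, the highest for Tsc22d3, and Dep 1, the lowest, were the 2 embryos with the least Xist, and the part of embryo sex was not tested. Ctl 2, Dep 2 and Dep 3 had many counts of both Xist and Ddx3y, so these values do not assign them a sex. Each of these libraries is described as 1 embryo, and how both transcripts came to be in it was not tested.

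Zbtb16 (ENSMUSG00000066687, chromosome 9, 48654297 to 48836222 in GRCm38), a zinc finger repressor of transcription, had 5.92, 55.9 and 42.4 normalized counts for Ctl against 1.21, 32.8 and 90.2 for Dep. Its value in Dep 1 is 1 read, for which the two-sided exact 95% Poisson interval runs up to 5.57 reads, a wider kind of bound than the limit used for 0 reads. Per1 (ENSMUSG00000020893, chromosome 11, 69095217 to 69109960 in GRCm38), a repressor of the circadian clock, had 53.3, 60.9 and 40.6 for Ctl against 7.28, 86.4 and 119 for Dep. For Per1, Dep 2 and Dep 3 lay above all Ctl embryos and Dep 1, with 6 reads, lay below them. The log2 differences were -0.44 ± 1.61 for Zbtb16 and -0.23 ± 1.09 for Per1 (SE; limma, unadjusted p = 0.789 and 0.838), and they turned to 1.11 and 0.98 without Dep 1 (unadjusted p = 0.337 and 0.193). Both also turned positive with edgeR, DESeq2, quantile normalization and library weights. Dep 1 was the lowest embryo for 4 of the 10 genes (Ncoa2, Tsc22d3, Zbtb16 and Per1), and for 29.7% of all genes.

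Some markers of primitive endoderm had no reads in the same embryo. Of 9 measured markers of that lineage, Gata4, Sox17 and Sox7 were at 0 in Dep 1, and Gata4 was at 0 in Ctl 3, while the other 4 embryos had reads for all 9. The summed level of the 9 was 20882 to 24852 normalized counts in Ctl and 21364 to 26042 in Dep, and their mean log2 level was 8.97, 9.75 and 6.82 for Ctl against 6.27, 10.05 and 10.04 for Dep. Per1 followed that order in part, with its lowest values in Dep 1 and Ctl 3 and its highest in Dep 3 and Dep 2, and Tsc22d3 did not, with its highest value in Ctl 3. Zbtb16 was lowest in Dep 1 and highest in Dep 3, but its value in Dep 2 (32.8) lay below that in Ctl 3 (42.4). The part of lineage composition in these values was not tested.

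**Figure D3:**
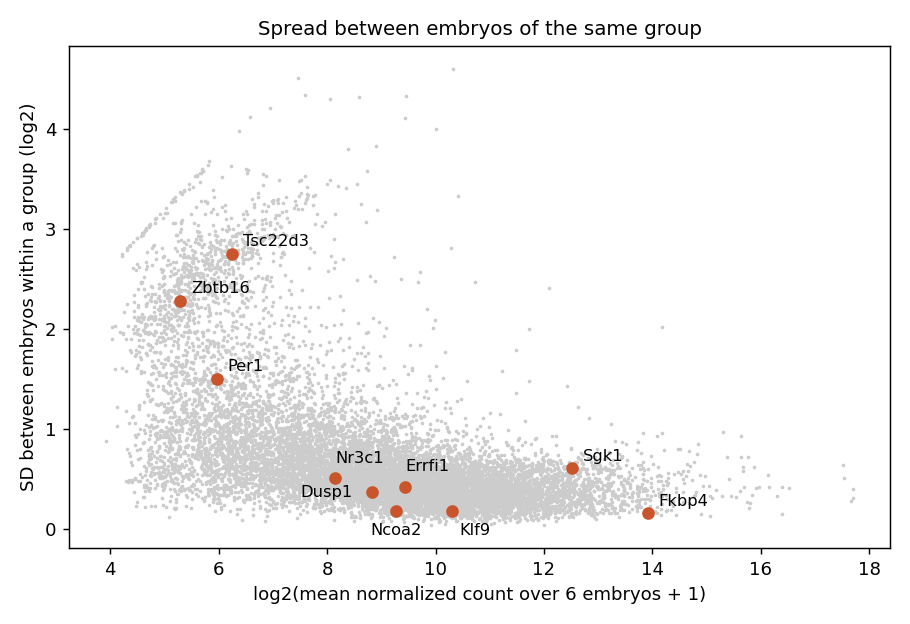
SD between embryos of the same group, on the log2(normalized count + 1) scale and pooled over the groups, against the mean level on the log2(normalized count + 1) scale; grey points are all 12149 genes and orange points the 10 genes. Tsc22d3, Zbtb16 and Per1 lie high on the left among weakly expressed genes, and Fkbp4, Ncoa2 and Klf9 lie near the lower edge.

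Spread between embryos of a group divided the 10 genes. On the log2 scale the SD within groups was 0.16 for Fkbp4, 0.17 for Ncoa2 and 0.17 for Klf9, at percentiles 2.27, 3.004 and 3.301 of all genes. It was 0.37 to 0.60 for Dusp1, Errfi1, Nr3c1 and Sgk1, at percentiles 26.4, 32.7, 46.4 and 57.8. It was 1.504 for Per1, 2.29 for Zbtb16 and 2.75 for Tsc22d3, at percentiles 88.6, 94.1 and 97.3. Weakly expressed genes vary more in general, and the percentiles are not adjusted for level. The fold between the highest and the lowest embryo was 1.698 for Klf9, 2.08 for Nr3c1, 3.12 for Sgk1 and 16.3 for Per1.

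Per exon length, levels over the 6 embryos ranked in the order Fkbp4 (mean 299.8 FPKM), Sgk1 (64.0), Klf9 (14.3), Errfi1 (10.4), Dusp1 (7.43), Ncoa2 (2.15), Nr3c1 (2.04), Tsc22d3 (0.983), Per1 (0.615) and Zbtb16 (0.416). Fkbp4 lay above Sgk1, Sgk1 above Klf9 and Dusp1 above Ncoa2 in all 6 embryos, with ranges that did not overlap. The other neighbours in this order had overlapping ranges. Ncoa2 exceeded Nr3c1 in 3 of 6 embryos, so these 2 levels were not distinguishable. The receptor lay above 25.2% of the 11829 genes with a length, Sgk1 above 91.3% and Fkbp4 above 98.5%. The table starts at a mean of 14.2 normalized counts, so these ranks are among the genes it lists.

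Of the other steroid receptor and ligand-handling genes that were looked for, 8 of 14 were listed. Among those not in the table were the mineralocorticoid receptor Nr3c2, which binds the same hormones, the progesterone and estrogen receptors Pgr, Esr1 and Esr2, and Hsd11b1, which reactivates glucocorticoids. Among those listed, 0 passed the test, 1 was higher and 7 lower, and all groups overlapped. The median log2 difference was -0.26, and it was -0.078 without Dep 1, -0.10 without Ctl 3, -0.54 without Ctl 1, -0.44 without Dep 3 and -0.79 without Dep 2. Abcb1a, an efflux pump that exports steroids, had 102, 202 and 210.1 normalized counts for Ctl against 65.6, 136 and 95.2 for Dep (limma, unadjusted p = 0.216; log2 difference -0.78, and -0.51 without Dep 1). Its relative Abcb1b had 742, 450.02 and 759.9 against 193, 899 and 458, a log2 difference of -0.56 that was 0.018 without Dep 1, and reads of these similar genes may be divided uncertainly. The nuclear import genes Kpnb1 and Tnpo1 were the most abundant, at 83.2 and 11.1 FPKM, with log2 differences of -0.19 and -0.05.

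A wider list of glucocorticoid targets was described in the same way. Of 33 measured of 48, 0 passed, 9 were higher and 24 lower, the median log2 difference was -0.17 (-0.10 without Dep 1 and -0.27 without Dep 3), and the groups did not overlap in 1 (3.03%, against 6.9% of all genes). That gene was Bcl2l1, an inhibitor of apoptosis, with 289.96, 421 and 391 normalized counts for Ctl against 444, 508 and 868 for Dep (log2 difference 0.68 ± 0.38 SE, limma unadjusted p = 0.107). Its log2 difference was 0.87 without Dep 1 (limma, unadjusted p = 0.0496). Txnip, which binds thioredoxin and limits glucose uptake, had 565, 891 and 1622 against 1166, 188 and 343 (unadjusted p = 0.0961), a log2 difference of -1.14 that was -1.88 without Dep 1 (unadjusted p = 0.00155, with 0 genes of the table passing adjustment). Gadd45a, a growth arrest gene, had 86.4, 146 and 125 against 20.6, 94.3 and 56.5 (0.128), a log2 difference of -1.26 that was -0.67 without Dep 1. The metallothioneins Mt1 and Mt2, which metals and glucocorticoids induce, were the most abundant targets at 1690.3 and 1290.5 FPKM. Mt1 had 87193 normalized counts in Dep 1 and 20277 to 52726 in the other 5 embryos, a log2 difference of -0.096 that was -0.79 without Dep 1 (unadjusted p = 0.0480). Mt2 had -0.19 and, without Dep 1, -0.86 (unadjusted p = 0.0300). Over all genes, 3.9% had an unadjusted p under 0.05 in limma without Dep 1. Such values were not confined to targets. Without Dep 1, Stip1 of the chaperone list had 0.76 (limma, unadjusted p = 0.0326) and Bhlhe41 of the clock list 2.34 (0.0221). Among lineage markers, Tdgf1 had 1.02 (0.00526) and Krt8 -0.66 (0.0493).

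Immediate early genes, which growth factors and handling induce within minutes, were considered because several of the 7 targets respond to the same signals. Of 17 measured of 26, 0 passed, 4 were higher and 13 lower, with a median log2 difference of -0.32 that was -0.005 without Dep 1. Junb, a subunit of the AP-1 factor, was the 1 gene of the list whose groups did not overlap (5.88%, against 6.9% of all genes), with 76.9, 81.8 and 70.6 normalized counts for Ctl against 151, 155 and 152 for Dep. Its log2 difference was 0.99 ± 0.55 (SE; limma, unadjusted p = 0.101, adjusted p = 0.9997), although its own SD within groups was 0.076, because limma draws the variance of a gene toward that of genes of like level. Myc had 459, 356 and 222 against 117, 183 and 322 (log2 difference -0.80, and -0.45 without Dep 1), and Klf6 5783, 3312 and 3592 against 4158, 2804 and 2442. Jund, the most abundant per length at 93.5 FPKM, had a log2 difference of -0.13.

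Of 19 circadian clock genes, the family Per1 belongs to by function, 13 were listed and 0 passed. Of these, 4 were higher and 9 lower, with all groups overlapping and a median log2 difference of -0.32 that was 0.34 without Dep 1. Arntl, the activator that drives Per genes, had 254, 305 and 334 normalized counts for Ctl against 10.9, 444 and 316 for Dep 1, 2 and 3, and was thus low in Dep 1 like Per1. Its log2 difference was -1.32, and 0.34 without Dep 1. Cry1, a partner of the Per proteins that is also in the list of glucocorticoid targets, had 660.4, 920.1 and 489 against 142, 642 and 907, a log2 difference of -0.61 that was 0.19 without Dep 1. The kinase genes Csnk1e and Csnk1d were the most abundant, with log2 differences of -0.07 and 0.17.

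**Figure D4:**
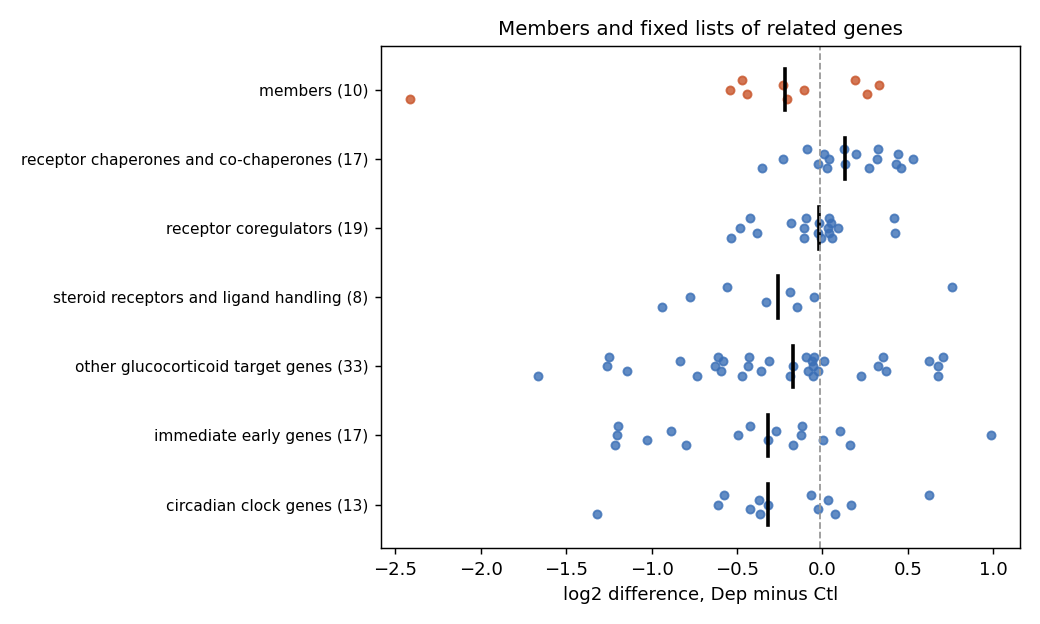
Log2 difference, Dep minus Ctl, of the 10 genes (orange) and of the measured genes of each list of related genes (blue, number measured in brackets), on the log2(normalized count + 1) scale; black ticks are medians and the dashed line is the median of all genes. Medians run from -0.32 for immediate early genes to 0.13 for chaperones and co-chaperones, and single genes scatter to both sides in every list.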

How the data were processed

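Messenger RNA of 6 single blastocysts was made into cDNA with the SMART-Seq v4 kit, per the labels' protocols. HISAT2, mm10 and Cufflinks 2.2.1 stand in the submitters' processing notes with no role, and which program counted reads is not given in the sources used here. What was deposited is a table with a normalized count (signal) per gene and library, and, per the file headers, the authors' log2 fold change with its error, test statistic (score), p-value and adjusted p-value. Low values in a deposited column were multiples of 1 step; division by that step returned whole reads for 100% of values (tolerance 0.01), and the step of Dep 2, 0.993, is so near 1 that its reading rests on the other columns. Genes with a mean under 14.2 were not listed, and intervals on reads cover counting error only. Of 12149 identifiers, 11829 matched GENCODE M21 (GRCm38), which also gave exon lengths for FPKM.

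The test was limma 3.58.1 (mean-variance trend) on log2(normalized count + 1) over all genes, Benjamini-Hochberg adjusted, threshold 0.05. Log2 differences on this scale understate changes of low genes. edgeR 4.0.16 and DESeq2 1.42.0 ran on recovered reads, in R 4.3.3. The fit was also run on simulated counts. No simulated library stood apart as Dep 1 does, so that run does not show how the fit behaves with such a library. A chi-square comparison of reads, made only between libraries of the same group, found no duplicates. The 10 genes and all lists were chosen with earlier results of these data known. From each list were named the 3 genes of smallest p and the 2 of highest FPKM, and from marker lists genes of highest level; 1 gene that the rule names is not reported here. Ly6a, Ergic1 and the lineage markers at 0 fall outside that rule where they are named.

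Embryos with the same replicate number deviated together from their group means (r across genes 0.133, 0.151 and 0.129, all above 0.1), so the numbers were read as a possible pairing. For embryos with unlike numbers r ran from -0.158 (Ctl 1 and Dep 3) to 0.044 (Ctl 2 and Dep 3). Deviations cancel out within each group, so these values depend on one another and do not establish a pairing. The possible pairing comes from that check and not from the labels. Printed errors and p-values are from the unpaired fit, and blocking on the number was an alternative.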

Additional observations from a re-analysis of the deposited data

How the results depend on the processing

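In 16 alternatives, 0 of the 10 genes passed an adjusted p of 0.05 and 0 had an unadjusted p under 0.05. Over all genes, DESeq2 called 1 and the other alternatives 0. The count at an unadjusted p under 0.05 was 399 with library weights, 420 with the replicate block, and 122 to 576 with an embryo left out, 122 without Ctl 1, 137 without Ctl 3, and 474, 349 and 576 without Dep 1, 2 and 3. The replicate block changed no call among the 10. The number of the 10 genes higher in Dep was 5 with quantile normalization, edgeR and DESeq2, and the number lower was 4 with a minimum mean of 100 normalized counts, which leaves 7 of the 10 to test. Of 157 recomputed differences of single genes, 16 changed sign, in 4 genes. Zbtb16 was 0.39, 0.26, 0.25 and 0.20 and Per1 0.43, 0.46, 0.46 and 0.49 with quantile normalization, edgeR, DESeq2 and library weights. With library weights Sgk1 was -0.058 and Errfi1 -0.018. With an embryo left out, Zbtb16 ran from -1.57 to 1.11, Per1 from -0.95 to 0.98, Sgk1 from -0.089 to 0.73 and Errfi1 from -0.037 to 0.42. Apart from what leaving out embryos or genes does by construction, the cause was not tested. The median over the 10 genes ran from -0.41 to -0.04 with an embryo left out. Tsc22d3, Zbtb16 and Per1 had 0, 1 and 6 reads in Dep 1, so their values there rest on few reads. Dep 1 held 17213406 reads in all and Ctl 1 16543356, and the cause of the low counts was not tested.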

Other observations

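A few more genes of the lists, chosen after their values were seen, are described here. Tat, a liver enzyme of tyrosine breakdown known as a classic hormone-induced gene, had a mean of 34.3 FPKM, with 2399, 1287 and 1221 normalized counts for Ctl against 327, 2263 and 1484 for Dep 1, 2 and 3, a log2 difference of -0.59 that was 0.24 without Dep 1. Fkbp5, a co-chaperone that the receptor induces and that restrains it in turn, had a mean of 0.786 FPKM, with 50.9, 185 and 189 for Ctl against 102, 113 and 163 for Dep, and a log2 difference of 0.02 ± 0.66 (SE). Hsd11b2, which inactivates glucocorticoids, had 7.10, 25.9 and 34.4 for Ctl against 0, 83.4 and 65.7 for Dep. H6pd, which supplies the cofactor of Hsd11b1, had 27.2, 35.9 and 27.4 against 0, 64.5 and 63.2. Without Dep 1 their log2 differences were 1.93 and 1.07, and with it -0.15 and -0.94. Both were at 0 in Dep 1 and above all Ctl embryos in Dep 2 and Dep 3, as Per1 was, apart from the 6 reads of Per1 in Dep 1. Over the whole table, 691 of the 12149 genes had no read in Dep 1, which was the lowest embryo for 29.7% of genes. How many genes share the whole pattern was not counted. Tat, Fkbp5, Hsd11b2 and H6pd did not pass the test (limma, adjusted p = 0.9997 for each).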
